A study of Mus musculus with 10 samples.

Results

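The interferon response genes are a set of 29 genes that cells switch on after interferon has bound its receptor. They were chosen as a list of symbols, and a probe was taken as a member when its accession belonged to one of them. The array carried 35 such probes, of 39429, for 28 of the 29 genes; no probe was matched to Mx1. Of these, 33 probes were bright enough to test, with at least 1 for each of the 28 genes. Ventricle RNA had been taken from male mice that received aldosterone for 7 days (5 hearts) and from male mice with no treatment over the same 7 days (5 hearts). The labels call the mice of both groups Ctrl without saying what that stands for. Each heart came from its own mouse, and dose, strain and age are not given in the sources used here. Heart RNA was labelled with Cy5 and hybridised on a 2-colour Agilent array beside a Cy3 reference, which pooled RNA of liver, brain, heart, kidney and spleen, so a value is the log2 ratio of a heart to that pool. Values are from scanner files of 4 aldosterone and 5 control arrays, and aldosterone heart 4 comes from the deposited value table alone, which is on its own normalization.

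Interferons are secreted proteins that warn cells of infection. Type I interferon acts through a complex that holds Stat2 and Irf9 and binds an element called ISRE, and interferon gamma acts on an element called GAS and through the factor Irf1. The targets include RNA sensors, proteins that bind or degrade viral RNA, GTPases that attack vacuoles holding parasites, and the machinery that loads peptides onto class I molecules. Many of these genes are known to keep a basal level in tissue without infection.

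The stretches upstream of the members are shown because they hold the elements that the pathway is known to use. RefSeq promoters of the GRCm38.p6 mouse assembly, from 250 bases before to 50 after the start, were matched for 25 of the 29 genes; Mx1, Oas2, Usp18 and Rtp4 were not matched. Both strands were searched for the repeated core of ISRE, GAAANNGAA, and for GAS, TTCNNNGAA, which reads alike on both strands. The 6 below are Igtp and Irgm1, 2 GTPase genes that varied widely between hearts, Ifit3 and Isg15, which like Ifit1 carry 3 ISRE cores each, and Irf7 and Tap1, which carry neither. The windows are chr11:58199306-58199605 on the plus strand for Igtp, chr11:48871371-48871670 on the minus strand for Irgm1, chr19:34583279-34583578 on the plus strand for Ifit3, chr4:156200769-156201068 on the minus strand for Isg15, chr7:141266375-141266674 on the minus strand for Irf7 and chr17:34187306-34187605 on the plus strand for Tap1. Capitals mark letters that match either motif, and overlapping matches run together.
Igtp: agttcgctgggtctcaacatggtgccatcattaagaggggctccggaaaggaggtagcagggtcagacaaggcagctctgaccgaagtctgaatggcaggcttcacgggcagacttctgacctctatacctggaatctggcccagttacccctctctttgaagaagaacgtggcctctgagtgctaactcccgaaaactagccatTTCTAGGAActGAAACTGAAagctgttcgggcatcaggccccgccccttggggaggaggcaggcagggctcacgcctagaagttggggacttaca
Irgm1: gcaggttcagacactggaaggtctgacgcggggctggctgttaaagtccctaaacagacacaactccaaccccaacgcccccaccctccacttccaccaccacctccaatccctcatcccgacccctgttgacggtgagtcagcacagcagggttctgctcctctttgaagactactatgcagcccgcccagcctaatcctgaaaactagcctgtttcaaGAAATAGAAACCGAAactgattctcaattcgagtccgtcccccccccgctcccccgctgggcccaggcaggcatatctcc
Ifit3: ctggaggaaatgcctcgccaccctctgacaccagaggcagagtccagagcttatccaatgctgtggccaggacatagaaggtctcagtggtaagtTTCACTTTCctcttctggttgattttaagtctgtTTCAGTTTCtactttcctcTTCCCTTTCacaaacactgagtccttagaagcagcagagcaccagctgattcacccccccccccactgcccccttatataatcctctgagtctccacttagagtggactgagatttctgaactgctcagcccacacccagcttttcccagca
Isg15: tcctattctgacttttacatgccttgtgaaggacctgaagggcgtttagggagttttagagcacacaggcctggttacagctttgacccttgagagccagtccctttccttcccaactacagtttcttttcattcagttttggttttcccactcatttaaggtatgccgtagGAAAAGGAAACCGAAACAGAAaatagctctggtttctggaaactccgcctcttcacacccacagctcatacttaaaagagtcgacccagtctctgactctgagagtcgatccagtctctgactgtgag
Irf7: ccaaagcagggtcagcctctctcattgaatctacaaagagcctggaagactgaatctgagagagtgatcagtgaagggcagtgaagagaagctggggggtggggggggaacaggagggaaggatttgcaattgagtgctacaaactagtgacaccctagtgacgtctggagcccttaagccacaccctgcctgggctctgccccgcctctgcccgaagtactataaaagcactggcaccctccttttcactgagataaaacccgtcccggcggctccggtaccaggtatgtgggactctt
Tap1: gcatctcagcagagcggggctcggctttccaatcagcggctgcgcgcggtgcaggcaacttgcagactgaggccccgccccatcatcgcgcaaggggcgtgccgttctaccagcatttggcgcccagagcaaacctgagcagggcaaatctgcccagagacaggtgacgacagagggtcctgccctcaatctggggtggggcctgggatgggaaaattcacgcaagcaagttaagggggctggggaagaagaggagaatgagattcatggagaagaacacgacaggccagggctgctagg

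An ISRE core lay in the promoter of 16 of 25 members, or 64.0%, against 9.76% of 27025 genes in the table. A GAS match lay in 7 of 25, or 28.0%, against 9.55% of all genes. All 4 GTPase genes held an ISRE core, as did 3 of 4 Ifit and ubiquitin-like genes, while none of the 3 antigen processing genes did. Tap1 and Psmb9 start back to back, and their windows share 275 bases. A match is a run of letters and not a site shown to be bound, and a gene without one can still have it outside the window.

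Among these genes single hearts stood apart. Control heart 2 had the highest value of the 9 arrays for 27 of the 28 genes, where it was the highest for 13.2% of 26829 probes of the array. Its median member lay 1.13 above the median of the other arrays on the log2 scale. It was at least 2-fold above them for 16 of 28 members, against 0.603% of 26874 probes. The exception was Irf7, which was highest in control 1. In the value table of 10 hearts control 2 was the highest for 26 of 28 members. There control 1 was the highest for Irf7 and for Ifi35, at 0.66 against 0.55 in control 2. Control 2 was at least 2-fold above the other hearts for 20 of 28 members in that table, against 2.11% of probes. The list had been proposed with such hearts known, so these counts describe the heart and carry no test.

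**Figure D1:**
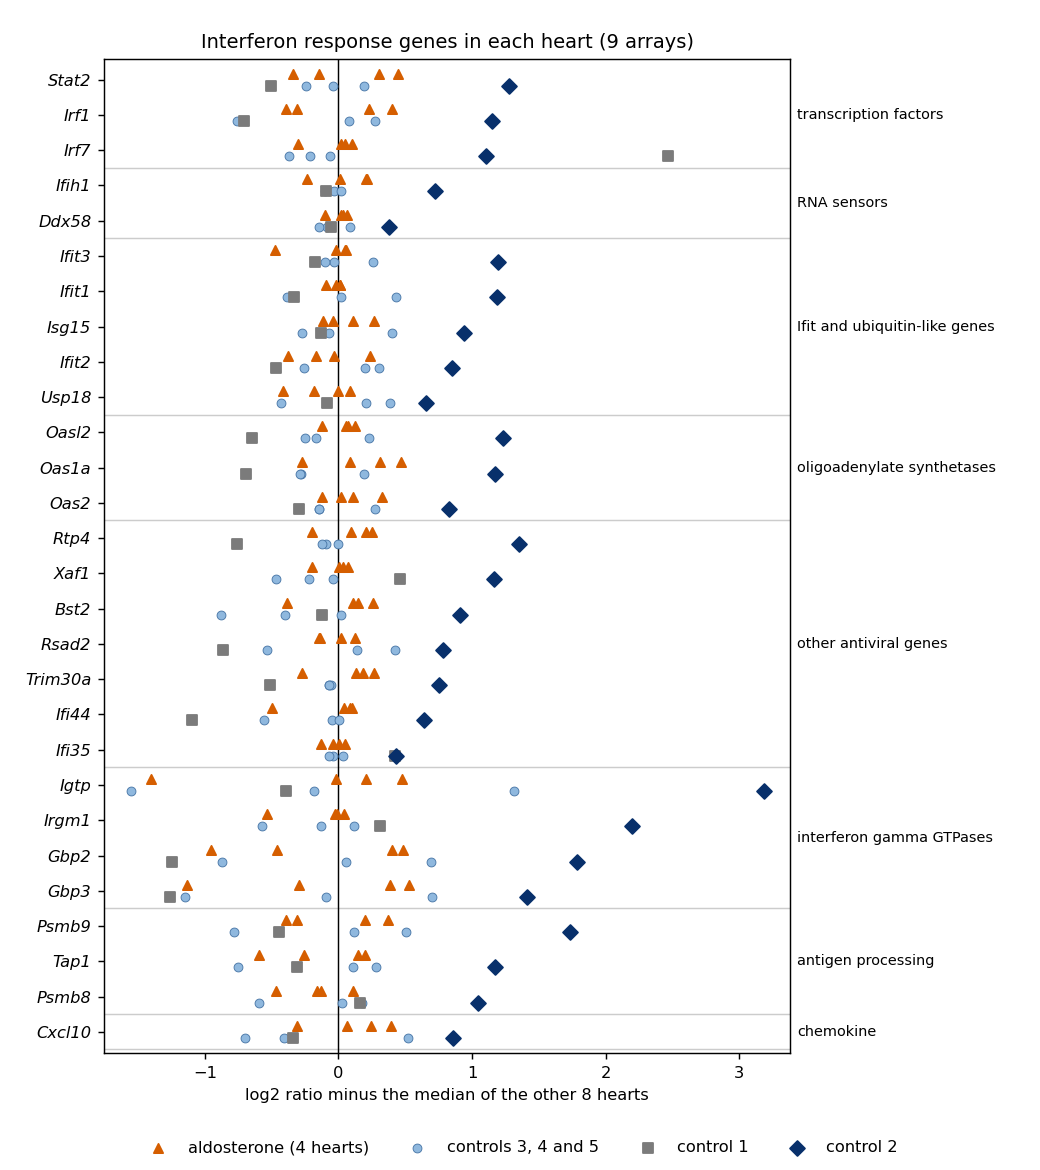
Log2 ratio of each member in each heart minus the median of the other 8 hearts, by gene, with roles named at the right; triangles are the 4 aldosterone hearts and the other marks are controls. Control 2 lies to the right of all other hearts for 27 of 28 genes, from 0.38 for Ddx58 to at least 3.18 for Igtp, whose spots were partly saturated there, and control 1 lies to the right for Irf7.

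The GTPase genes varied widely between hearts, and Igtp had the widest range of all members. Igtp, a GTPase also called Irgm3 that guards vacuole membranes, had log2 ratios of -2.95, -1.48, -1.62 and -1.21 in aldosterone hearts 1, 2, 3 and 5, against -1.94, 1.50, -0.36, -3.10 and -1.73 in control hearts 1 to 5. Control 2 was thus the highest, control 3 second, and control 4 and aldosterone 1 the lowest, so the groups overlapped. The median Cy5 signal of Igtp was 63655 units in control 2, where 5 of its 10 spots were saturated, and 2885 to 21580 units elsewhere, so the Igtp ratio of control 2 is a lower bound. Irgm1, a relative of Igtp, had ratios of -2.93, -2.38, -2.42 and -2.41 in aldosterone hearts 1, 2, 3 and 5, against -2.10, -0.22, -2.30, -2.97 and -2.52 in control hearts 1 to 5. Its control 2 value was 2.20 above the median of the other arrays, and a second Irgm1 probe gave 1.90. Aldosterone 4 stood at -2.83 for Igtp and -2.74 for Irgm1 in the value table, beside the low hearts. Gbp2 and Gbp3, guanylate-binding proteins that gather on pathogen membranes, spanned -1.55 to -0.39 with aldosterone and -1.84 to 0.91 in controls for Gbp2, and -1.10 to 0.34 with aldosterone and -1.23 to 1.22 in controls for Gbp3.

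Aldosterone minus control was -0.68 (SE 0.77; limma adjusted p = 0.999) for Igtp and -0.51 (SE 0.44; limma adjusted p = 0.99) for Irgm1. Igtp averaged -1.81 ± 0.78 with aldosterone (SD, n = 4) and -1.13 ± 1.76 in controls (SD, n = 5). With control 2 saturated, that control mean is a lower bound, its SD is set in part by the ceiling, and the difference with all arrays may be further below 0 than given. Irgm1 averaged -2.53 ± 0.27 with aldosterone (SD, n = 4) and -2.02 ± 1.06 in controls (SD, n = 5). Without control 2 the differences were -0.03 for Igtp, -0.06 for Irgm1, 0.18 for Gbp2 and 0.28 for Gbp3, so 2 of the 4 GTPase genes changed direction and none passed the test either way.

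The 3 antigen processing genes were each highest in control 2 and lowest in control 4. Psmb9, a catalytic subunit of the immunoproteasome, had ratios of -2.40, -2.32, -1.98 and -1.80 in aldosterone hearts 1, 2, 3 and 5, against -2.45, -0.44, -1.67, -2.79 and -2.03 in control hearts 1 to 5. Tap1, a subunit of the transporter that carries peptides to class I molecules, had -1.77, -1.43, -1.16 and -1.11 in aldosterone hearts 1, 2, 3 and 5, against -1.49, -0.14, -1.03, -1.93 and -1.19 in control hearts 1 to 5. The 4 aldosterone hearts lay between those ends for both, and aldosterone 4 stood at -2.32 and -1.94 in the value table. Psmb8, a second immunoproteasome subunit, spanned -2.62 to -2.13 with aldosterone and -2.75 to -1.19 in controls. The differences were -0.25 (SE 0.38; limma adjusted p = 0.999) for Psmb9, -0.22 (SE 0.29; limma adjusted p = 0.999) for Tap1 and -0.29 (SE 0.24; limma adjusted p = 0.985) for Psmb8, and without control 2 they were 0.11, 0.04 and -0.07 in the same order. Psmb9 averaged -2.12 ± 0.28 with aldosterone (SD, n = 4) and -1.88 ± 0.91 in controls (SD, n = 5).

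The Ifit and ubiquitin-like genes ordered the hearts differently below control 2. Ifit3, which with its relatives binds the ends of foreign RNA, had ratios of -1.65, -1.19, -1.15 and -1.14 in aldosterone hearts 1, 2, 3 and 5, against -1.35, -0.0044, -1.20, -0.94 and -1.28 in control hearts 1 to 5. Ifit1 had -1.44, -1.46, -1.44 and -1.54 in aldosterone hearts 1, 2, 3 and 5, against -1.77, -0.26, -1.44, -1.02 and -1.83 in control hearts 1 to 5. Control 2 was highest for both and control 4 second, while the 4 aldosterone hearts lay between -1.54 and -1.44 for Ifit1, and aldosterone 1 lay below the rest for Ifit3. Ifit2 spanned -0.46 to 0.03 with aldosterone and -0.55 to 0.64 in controls. Isg15, the ubiquitin-like tag, spanned -2.36 to -2.04 with aldosterone and -2.52 to -1.37 in controls, and Usp18, the protease that removes it and damps receptor signalling, -2.15 to -1.71 with aldosterone and -2.16 to -1.14 in controls. The second Isg15 probe also had control 2 highest, 0.72 above the median of the others, against 0.94 for the first. Ifit3 averaged -1.29 ± 0.25 with aldosterone (SD, n = 4) and -0.95 ± 0.55 in controls (SD, n = 5), a difference of -0.33 (SE 0.24; limma adjusted p = 0.972). Ifit1 averaged -1.47 ± 0.04 with aldosterone (SD, n = 4) and -1.26 ± 0.65 in controls (SD, n = 5), a difference of -0.21 (SE 0.27; limma adjusted p = 0.999). Without control 2 they were -0.09 and 0.04.

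The oligoadenylate synthetases make short adenylate chains that activate an RNase. Oasl2 had ratios of -1.72, -1.59, -1.53 and -1.58 in aldosterone hearts 1, 2, 3 and 5, against -2.24, -0.42, -1.84, -1.42 and -1.76 in control hearts 1 to 5. Oas1a had -2.42, -1.98, -1.83 and -2.18 in aldosterone hearts 1, 2, 3 and 5, against -2.83, -1.13, -2.42, -2.11 and -2.43 in control hearts 1 to 5. Control 2 was highest and control 1 lowest for both, and the aldosterone hearts lay between them. A second Oas1a probe kept both ends of that order. Oas2 spanned 0.92 to 1.29 with aldosterone and 0.74 to 1.79 in controls. The differences were -0.07 (SE 0.28; limma adjusted p = 0.999) for Oasl2, 0.08 (SE 0.28; limma adjusted p = 0.999) for Oas1a and -0.04 (SE 0.19; limma adjusted p = 0.999) for Oas2, and without control 2 they were 0.21, 0.35 and 0.13, all above 0. Without control 2, the Oas1a difference had an unadjusted p of 0.0534 and a limma adjusted p of 0.771.

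Of the other antiviral genes, Rtp4, a chaperone of membrane receptors that restricts some viruses, had ratios of -2.14, -1.91, -1.80 and -1.75 in aldosterone hearts 1, 2, 3 and 5, against -2.70, -0.65, -2.03, -1.97 and -2.06 in control hearts 1 to 5. Bst2, or tetherin, which holds budding virions at the cell surface, had -1.63, -1.21, -1.17 and -1.07 in aldosterone hearts 1, 2, 3 and 5, against -1.37, -0.41, -1.64, -1.27 and -2.12 in control hearts 1 to 5. Control 2 was the highest for both; the lowest was control 1 for Rtp4 and control 5 for Bst2. The remaining genes were Rsad2 (viperin, a maker of chain-terminating nucleotides), Ifi44, Trim30a, a TRIM family ligase, Ifi35 and Xaf1, a partner of the apoptosis inhibitor XIAP. Their ranges were -1.92 to -1.74 with aldosterone and -2.64 to -1.08 in controls for Rsad2, -1.15 to -0.58 with aldosterone and -1.74 to -0.04 in controls for Ifi44, -1.20 to -0.74 with aldosterone and -1.44 to -0.25 in controls for Trim30a, -0.21 to -0.05 with aldosterone and -0.15 to 0.33 in controls for Ifi35 and -1.06 to -0.81 with aldosterone and -1.33 to 0.28 in controls for Xaf1. Ifi35 was about as high in control 1, at 0.32, as in control 2, at 0.33. The differences were -0.02 (SE 0.31; limma adjusted p = 0.999) for Rtp4 and 0.09 (SE 0.27; limma adjusted p = 0.999) for Bst2, and for the others -0.01 for Rsad2, 0.13 for Ifi44, 0.03 for Trim30a, -0.18 for Ifi35 and -0.21 for Xaf1. Ifi35 had the smallest adjusted p of all members, 0.939 in limma.

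Xaf1 has a second probe that split the hearts into 2 levels. Its ratios were -4.07, -4.34, -4.27 and -0.47 in aldosterone hearts 1, 2, 3 and 5, against -4.26, -3.92, -0.53, -4.26 and -0.55 in control hearts 1 to 5. The signal in Cy5 was 1452 to 2031.5 units in control 3, control 5 and aldosterone 5, and 86.5 to 131 units in the other 6 hearts. Its Cy3 signal of the pool was 919 to 1021 units on all arrays. The first probe, which represents Xaf1 by its higher mean Cy5 signal, read 642.5 to 1941 units in Cy5 over the 9 arrays, and was the brighter of the pair in the same 6 hearts only. In the value table aldosterone 4 was with the high hearts at -0.44. The ratios of the first probe were -0.85, -0.87, -0.81 and -1.06 in aldosterone hearts 1, 2, 3 and 5, against -0.42, 0.28, -1.33, -0.90 and -1.08 in control hearts 1 to 5. The 3 hearts high on the second probe were the 3 lowest on the first, and in the value table the 4 high hearts were the 4 lowest, by a margin far smaller than the gap on the second probe. Both levels occur in both groups, and the difference was -0.58 (SE 1.04; limma adjusted p = 0.999).

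The factor genes varied widely between hearts and the sensor genes little. Irf7, which drives more interferon transcription once induced, had ratios of -2.36, -2.05, -1.99 and -2.07 in aldosterone hearts 1, 2, 3 and 5, against 0.37, -0.99, -2.27, -2.12 and -2.43 in control hearts 1 to 5. Control 1 was the highest and control 2 second, while the other 7 hearts lay between -2.43 and -1.99. Its Cy5 signal was 1446 units in control 1 and 173.5 to 611.5 units elsewhere, with Cy3 at 506.5 to 569.5 units. Control 1 had the lowest value of all arrays for 11 other members, and the share over all probes was not computed. Irf1, the interferon gamma factor, had -1.48, -1.40, -0.87 and -1.04 in aldosterone hearts 1, 2, 3 and 5, against -1.80, -0.12, -1.004, -1.85 and -1.14 in control hearts 1 to 5, with control 2 highest and controls 1 and 4 lowest. Stat2, a factor of the type I complex, spanned -0.80 to -0.13 with aldosterone and -0.97 to 0.70 in controls. Ifih1, the sensor of long double-stranded RNA also called MDA5, had -1.31, -0.89, -0.88 and -1.08 in aldosterone hearts 1, 2, 3 and 5, against -1.17, -0.37, -1.11, -1.18 and -1.07 in control hearts 1 to 5. Control 2 stood above the rest for Ifih1, and the other controls lay between -1.18 and -1.07. Ddx58, or RIG-I, spanned -1.12 to -0.98 with aldosterone and -1.17 to -0.67 in controls, the narrowest range of all members. A second Ddx58 probe spanned -0.09 to 0.07 with aldosterone and -0.19 to 0.32 in controls. The second probes of Irf1, above background on 0 of 9 arrays, and of Ifih1, above it on 1 of 9, were not tested. The differences were -0.63 (SE 0.49; limma adjusted p = 0.979) for Irf7, -0.02 (SE 0.31; limma adjusted p = 0.999) for Irf1 and -0.06 (SE 0.16; limma adjusted p = 0.999) for Ifih1.

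**Figure D2:**
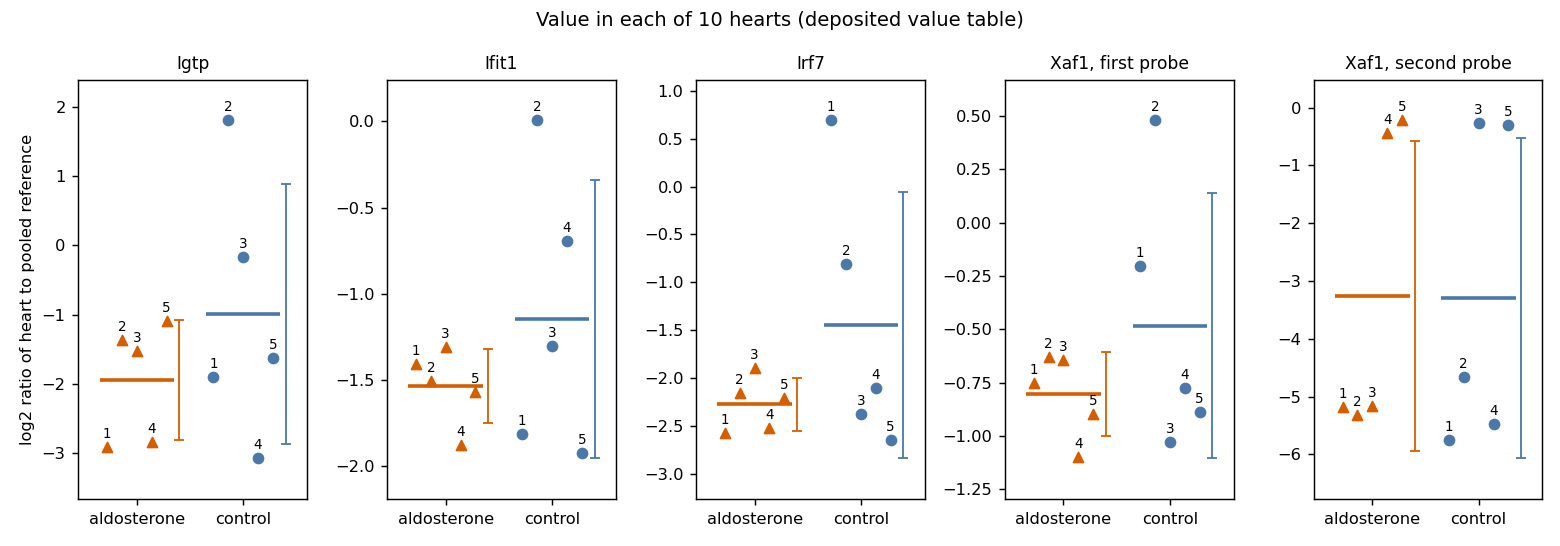
Log2 ratio of heart to pooled reference in each of the 10 hearts of the deposited value table, for Igtp, Ifit1, Irf7 and both Xaf1 probes; triangles are aldosterone and circles control hearts, numbered by replicate, with the group mean as a line and the SD as a bar. Control 2 is highest for Igtp, Ifit1 and the first Xaf1 probe, control 1 for Irf7, and the second Xaf1 probe is high in 2 hearts of each group, the 4 that are lowest on the first. The Igtp value of control 2 is a lower bound.

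Cxcl10, the chemokine that draws activated T cells, had ratios of -4.43, -3.91, -4.18 and -4.06 in aldosterone hearts 1, 2, 3 and 5, against -4.46, -3.45, -4.53, -3.79 and -4.82 in control hearts 1 to 5. Control 2 was the highest and control 5 the lowest. It averaged -4.14 ± 0.22 with aldosterone (SD, n = 4) and -4.21 ± 0.57 in controls (SD, n = 5), a difference of 0.06 (SE 0.25; limma adjusted p = 0.999). In the value table aldosterone 4 was the lowest heart at -5.55, and the difference there was -0.18 (SE 0.40), the opposite direction.

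The order of the hearts differed between roles. In control 4 the GTPase genes had a median of -1.01 and the antigen processing genes of -0.75 against the other arrays, with 4 of 4 and 3 of 3 below them. The Ifit and ubiquitin-like genes had a median of 0.38 there and the oligoadenylate synthetases of 0.23, with 5 of 5 and 3 of 3 above. Control 3 showed the opposite for GTPase genes, at 0.70 with 4 of 4 above, and oligoadenylate synthetases, at -0.25 with 3 of 3 below. Aldosterone 1 was low for both classes, with GTPase genes at -1.04 and Ifit and ubiquitin-like genes at -0.38. Aldosterone 2, 3 and 5 stayed within 0.44 of the other arrays in the median of every role. In the value table aldosterone 4 was low for GTPase genes at -0.73, for antigen processing genes at -0.45 and for Cxcl10 at -1.21, and near the others for oligoadenylate synthetases at 0.05.

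**Figure D3:**
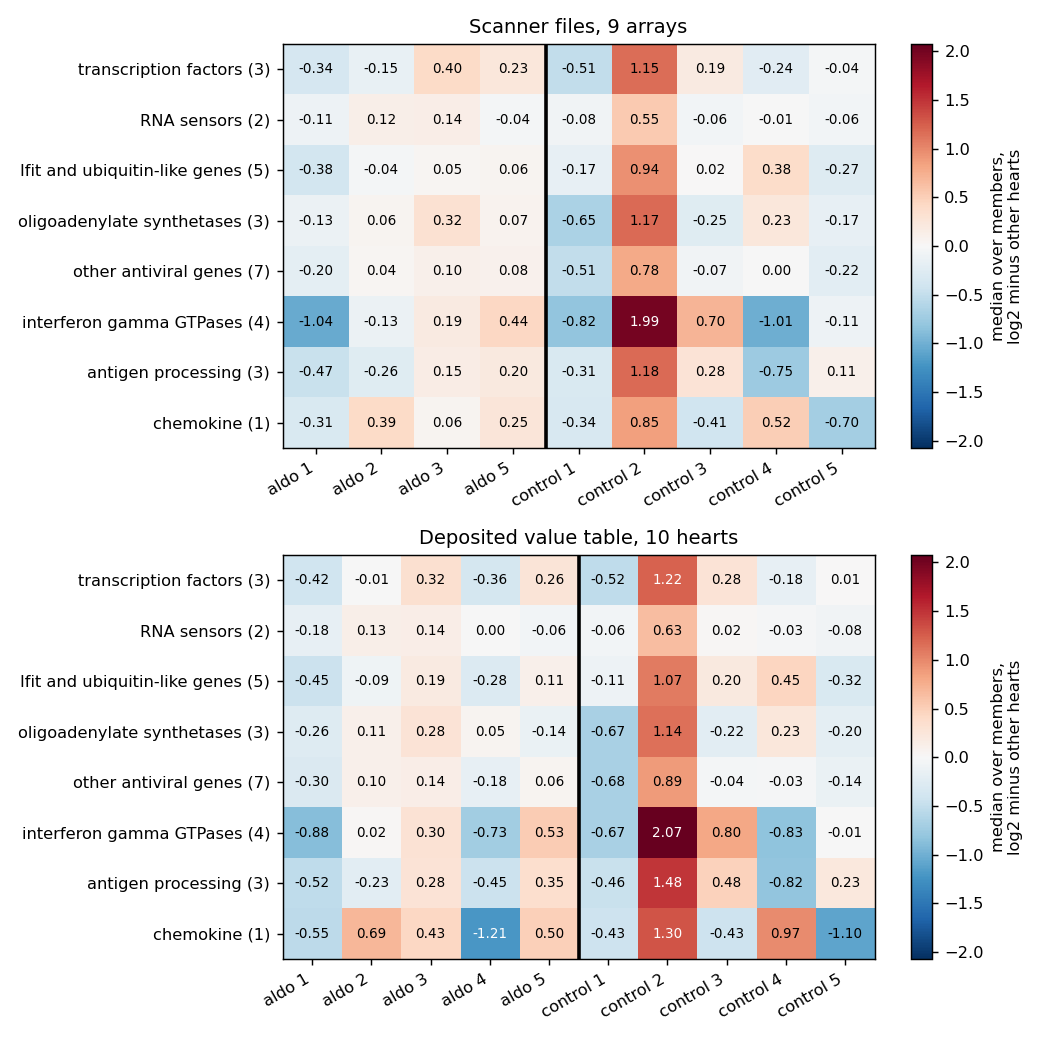
Median over the members of each role, in log2 units, of the value in a heart minus the median of the other hearts, for the 9 scanner arrays (top) and the 10 hearts of the value table (bottom); columns are hearts with aldosterone left of the line, and the number of members is in brackets. Control 2 is above 0 in every role, and on the 9 arrays aldosterone 1 and control 4 are at -1.04 and -1.01 for the interferon gamma GTPases.

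Aldosterone against no treatment was then tested across all 26874 probes with limma, which found no probe at an adjusted p under 0.05 (0%), and 1638, or 6.10%, at an unadjusted p under 0.05. Among the 28 members, 0 passed at the adjusted threshold and 0 at the unadjusted one. The group mean was lower with aldosterone for 23 members and higher for 5, where 48.5% of all probes were lower. The median difference of the members was -0.10 on the log2 scale, against 0.00348 for all probes. The ranges of the groups overlapped for all 28 members, and groups did not overlap for 2.00% of all probes. Two-sided exact permutation tests of single members gave unadjusted p from 0.27 to 0.976, where the smallest that the design allows is 0.00794. The number of hearts limits the precision: the SE was 0.09 for Ddx58 and 0.77 for Igtp.

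The direction of that median rested on control 2. That heart was the highest array for 27 of 28 members, so leaving it out had to raise their differences. The change is therefore no test. Without control 2, 20 members were higher with aldosterone and 8 lower, and the median difference was 0.10. Again 0 were called, among the members and over all probes. The share of all probes that were higher without control 2 was not computed. In the value table of 10 hearts, limma called 35 of 26874 probes, or 0.130%, and 2145, or 7.98%, had an unadjusted p under 0.05. No member was among either. There 24 members were lower and 4 higher, with a median of -0.18, the smallest adjusted p was 0.654, and without control 2 the count was 10 lower and 18 higher with a median of 0.04. All members' groups overlapped in the table too, where the share over all probes was not computed.

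**Figure D4:**
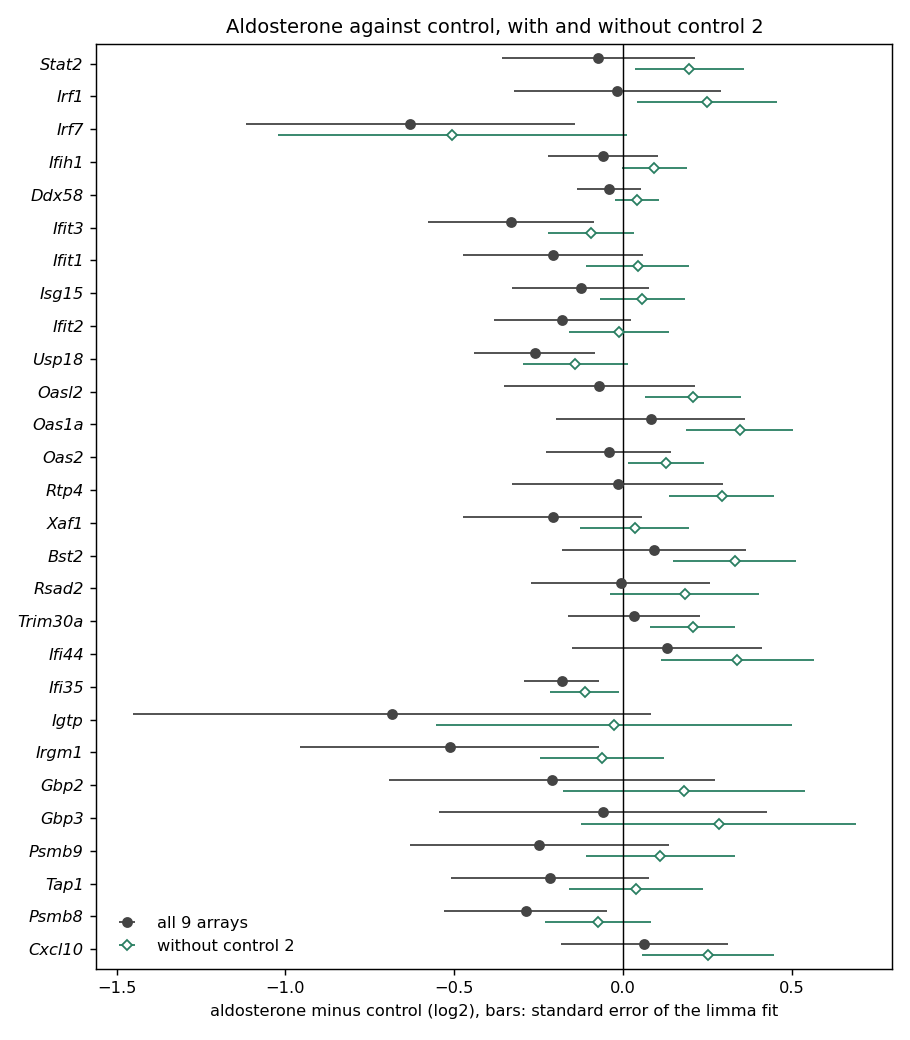
Aldosterone minus control (log2) for each member, from all 9 arrays (filled circles) and without control 2 (open diamonds), with the standard error of the limma fit as bars. With all arrays 23 of 28 members lie left of 0, and without control 2 there are 20 to the right of 0.

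Among the arrays with a scanner file, each of the 4 slides held 1 aldosterone array, so the comparison could also be made within slides. The slide of aldosterone 4 was not known. The median difference over members was -0.54 on slide 1, where aldosterone 1 was set against controls 1 and 2 and 27 of 28 members were lower. It was -0.01 on slide 2 (aldosterone 2 against control 3, 14 lower and 14 higher), 0.11 on slide 3 (aldosterone 3 against control 4, 9 lower and 19 higher) and 0.24 on slide 4 (aldosterone 5 against control 5, 1 lower and 27 higher). Slides 2, 3 and 4 held 1 array of each group with a scanner file. These aldosterone arrays always lay at position 2 of a slide and controls at position 1, or 4 for control 2. The effects of position and treatment therefore cannot be told apart. Control 2 was the only array at position 4, so its heart and its position cannot be told apart either. The hearts also differed in Ephx1, an epoxide hydrolase gene that is no member, in a way that crossed the groups. Its ratio was -0.79 and -0.90 in aldosterone 1 and 2 and 2.81 and 3.08 in aldosterone 3 and 5, against -0.66 and -0.53 in controls 2 and 5 and 3.32, 3.82 and 3.17 in controls 1, 3 and 4. On slides 2 and 4 the arrays of the groups were thus at different Ephx1 levels, and on slide 3 both were high. The part of these levels in the differences within slides was not tested.

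**Figure D5:**
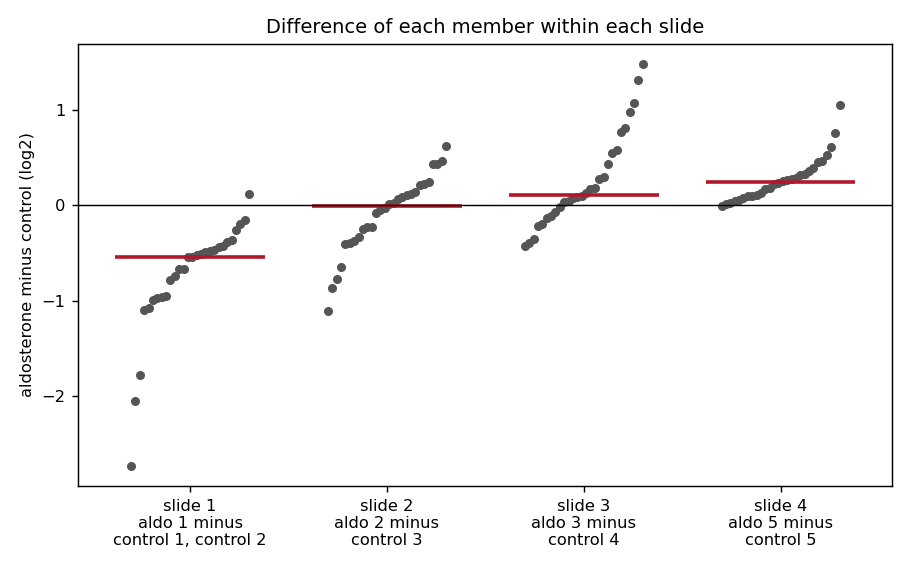
Aldosterone minus control (log2) of each of the 28 members within each slide, sorted by size, with the median as a line; on slide 1 the control value is the mean of controls 1 and 2. The medians are -0.54, -0.01, 0.11 and 0.24.

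The wider pathway was read from a list of its other genes. Of 69 listed, 67 had a probe and 64 were bright enough; the list was put together with earlier results of these data known. None was called in either fit. On the 9 arrays 5 of the 64, or 7.81%, had an unadjusted p under 0.05, near the 6.10% of all probes. With aldosterone 44 were lower and 20 higher, with a median difference of -0.06, and without control 2, an alternative chosen after seeing the data, 19 were lower and 45 higher, with a median of 0.06. Among ligands, receptors and kinases, the receptor gene Ifngr1 differed by 0.31 (SE 0.10; unadjusted p = 0.0123, limma adjusted p = 0.647) and the kinase gene Jak1 by -0.11 (SE 0.08; unadjusted p = 0.19, limma adjusted p = 0.965). Among factors and feedback genes, Socs3, an inhibitor of cytokine receptors, differed by 0.22 (SE 0.08; unadjusted p = 0.0219, limma adjusted p = 0.733), and Ciita, the class II transactivator, by -0.13 (SE 0.12; unadjusted p = 0.324, limma adjusted p = 0.997). Among nucleic acid sensors, the DNA sensor Cgas differed by 0.14 (SE 0.07; unadjusted p = 0.0893, limma adjusted p = 0.891) and its adaptor Sting1 by 0.14 (SE 0.10; unadjusted p = 0.211, limma adjusted p = 0.976). Among other targets, the class I gene H2-D1 differed by -0.67 (SE 0.23; unadjusted p = 0.0151, limma adjusted p = 0.686) and Tor3a by 0.17 (SE 0.06; unadjusted p = 0.0188, limma adjusted p = 0.714). Socs3 and Tor3a were not raised in control 2, at -0.12 and -0.07 against the other arrays.

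Control 2 was the highest array for 47 of the 64, or 73.4%, against 13.2% of all probes, with a median of 0.57 above the others. By class this was 31 of 38 other targets, 6 of 8 factors and feedback genes and 9 of 11 sensors. For the ligands, receptors and kinases it was 1 of 7, near the share over all probes, and their median excess was 0.10. Leaving control 2 out thus had to raise the differences of the 47 genes highest there. Ifi27, a mitochondrial interferon target, did not follow: it was highest in control 1 at 0.96, against -1.59 to -0.85 in controls 2 to 5 and -1.92 to -0.99 with aldosterone, and it was singled out after its values were seen. That is the heart in which Irf7 was highest.

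Outside the members, the 20 named genes farthest above in control 2 were listed by a fixed rule, as a description of that heart. They lay 1.55 to 4.64 above the median of the other arrays, and 3 of them are in the pathway lists. They held the interferon-inducible GTPase genes Gm4841 (4.64), F830016B08Rik (3.81), Gm12250 (2.59), Gm4951 (2.44), Iigp1 (2.28), Irgm2 (2.09) and Gbp6 (2.00). Such GTPase genes are close relatives, and a probe may not tell their transcripts apart. The 20 also held the chemokine gene Cxcl9 (1.97), the factor gene Batf2 (1.97), the tryptophanyl-tRNA synthetase gene Wars (1.79), the checkpoint ligand gene Cd274 (1.71) and Ifi202b. The others of the 20 were Vmn1r65, Sfi1, Mt2, Jaml, Mrap2, Tchhl1, Wdr92 and Ces1d. Control 2 was not the highest array for Tchhl1, at 1.06 against 1.43 in control 5. Nor was it for Ces1d, at -1.54 against -1.48 in aldosterone 2. Wdr92 was nearly as high in control 1, at 2.53, as in control 2, at 2.65. The Vmn1r65 probe rose and fell over the arrays with that of F830016B08Rik. Its ratio was 1.70 against 1.92 in control 2, -3.15 against -3.76 in control 4 and -0.87 against -1.06 in aldosterone 2. Whether both probes read the same transcript was not tested. The 20 farthest below held no gene of the pathway lists. They ranged from -3.60 for Ephx1 to -1.28 for Dab1. Ephx1, an epoxide hydrolase gene, was as low in aldosterone 1, aldosterone 2 and control 5. The 20 below included the beta globin genes Hbb-bs (-2.35) and Hbb-b2 (-1.66), the heme synthesis gene Alas2 (-1.36) and the natriuretic peptide gene Nppb (-1.43). They also held Trim12a (-2.77), of the TRIM family like Trim30a, and Mndal (-1.91). Trim12a was about as low in control 1, control 3 and aldosterone 1, at -2.45, -2.56 and -2.51, as in control 2, at -2.58. Mndal stood at -1.46 in control 2, with aldosterone 5 at -1.47 and control 4 lower, at -1.85. Nppb was lower in control 5, at 0.69, than in control 2, at 0.80.

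Cell type markers were read beside these results, since in whole ventricle more cells of a type and more RNA per cell cannot be told apart. Cardiomyocyte markers, 7 of 7 measured, averaged 1.33 to 1.72 in aldosterone arrays and 1.27 to 1.63 in control arrays on the log2 ratio scale, above the pool throughout. Macrophage and monocyte markers, 7 of 9 measured, had summed Cy5 signals of 8748 to 13541 units with aldosterone and 7640 to 13347 units in controls. Their mean was -1.05 in control 2, the highest of all arrays, 5 of 7 were highest there, and their median excess was 0.48, with C1qa at 0.95, Fcgr1 at 0.70 and Csf1r at 0.34. Their part in the control 2 result was not tested. The median excess in control 2 was 0.30 for neutrophil, 0.13 for fibroblast, 0.12 for B cell, 0.06 for T and natural killer cell and 0.05 for plasmacytoid dendritic cell markers. For cardiomyocyte, endothelial and smooth muscle markers it was 0.05, 0.02 and 0.21. Of the lists from neutrophil to smooth muscle, only the B cell list had its highest median excess in control 2. Neutrophil markers reached 0.66 in aldosterone 1 and 0.41 in aldosterone 2, fibroblast markers 0.29 in aldosterone 1, and smooth muscle markers 0.24 in control 5. Of 4 thymocyte markers 1 was bright enough to read. The array of control 2 had 67.9% of probes above background in Cy5 and a median Cy5 signal of 135 units, within the 64.3% to 70.9% and 118.5 to 146.25 units of all 9 arrays.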

How the data were processed

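Spot intensity values were taken from the deposited scanner files (4 aldosterone and 5 control arrays). The submitters' processing notes name Feature Extraction 10.7.3.1 of Agilent. Per the file headers, those files also hold a log10 ratio, which runs Cy5 over Cy3. The authors' deposited value table holds log2 ratios for all 10 hearts, and on the 9 arrays at hand it matched the scanner's ratio with a slope of 1.00 and 82.7% to 86.5% of probes within 0.001. The table was used uncentred, with column medians of 0.04, 0.08, 0.11, -0.00664 and 0.04 in aldosterone hearts 1 to 5 and 0.06, 0.06, 0.12, 0.02 and 0.02 in control hearts 1 to 5.

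Median signals were background-corrected with normexp (offset 50), after any local background that strayed over 20 units off its array's median was set to that median, and normalized by loess within arrays (R 4.3.3, limma 3.58.1). The highest local Cy5 background before that step was 11739.5 units on control 1 and 77 to 712 units on the other arrays. Control spots and 1667 outlier spots were left out, and spots were averaged per probe. Of 39429 probes 26874 were kept, with Cy5 well above background on at least 4 of 9 arrays. Accessions were named through RefSeq records of GRCm38.p6. A member was represented by its kept probe of highest mean Cy5 signal, and the dim second probes of Irf1 and Ifih1 were not tested. The groups were compared with limma (two-sided, threshold 0.05), for the 9 arrays and for the 10 hearts, and p-values were adjusted by Benjamini-Hochberg across every kept probe. The fit was tested on simulated data. Deviations of a heart are from the median of the other hearts.

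The members, lists and tests were chosen with earlier results of these data known. All 29 members are named, and values in every heart are given for the members of widest range in each role. Deviations of same-numbered hearts had correlations from -0.32 to 0.34 on the 9 arrays. These differ in sign and are too few to show whether the numbers pair the hearts. The main fits did not pair them. Alternatives in background correction, normalization, filter, blocks, weights and left-out arrays were tried. The value table for single members, and the pathway list without control 2, were added after seeing the data.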

Additional observations from a re-analysis of the deposited data

Results flagged for a closer look

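In groups of 4 or 5 hearts, the highest or lowest heart was compared with its nearest neighbour by Dixon's criterion, for 56 groups in each source. On the 9 arrays 4 groups had such a heart, and 2 groups had one in the value table. For independent groups chance alone gives about 1 in 20. These groups share the same hearts, and the members were chosen with such hearts known, so the counts cannot be set against that share.

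Aldosterone 1 was far below the other aldosterone arrays for Ifit3 at -1.65, for Ifi44 at -1.15 and for Irgm1 at -2.93. In the value table of 10 hearts it was again far below for Ifit3, at -1.44. Control 2 was far above the other controls for Ifih1, at -0.37 on the 9 arrays and 0.00106 in the value table. Control 2 was the highest of the 9 arrays for 27 of 28 members, but met the criterion for Ifih1 alone.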

How the results depend on the processing

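No member passed the limma test in any of 23 alternatives on the 9 arrays or 14 in the value table. The smallest adjusted p of a member over these and in the table itself was 0.654, for Ifi35 in the table. The median difference of the members ran from -0.21 to 0.16 on the 9 arrays and from -0.29 to 0.04 in the table. It was above 0 on the 9 arrays without control 2 (0.10) and without slide 1 (0.16), in the table without control 2 (0.04), and below 0 in all other alternatives.

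Calls over all probes, 0 on the 9 arrays, were 8 with Agilent's processed ratio and 3 with array weights. With 1 array left out they ran from 0 to 12, with 1 without aldosterone 1, 12 without control 3, 2 without control 4 and 12 without control 5. The replicate number as a block, a pairing that the correlations do not settle, gave 2 calls on the 9 arrays and 0 in the table. The medians of the members were then -0.15 and -0.18. The table's 35 calls became 10 without a filter on dim probes. With 1 heart left out they ran from 2 to 57, with 5 without aldosterone 1, 3 without aldosterone 2, 2 without aldosterone 3, 15 without aldosterone 4, 5 without aldosterone 5, 7 without control 1, 4 without control 2, 40 without control 3, 6 without control 4 and 57 without control 5.

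Members whose difference changed sign were called in no alternative. With local backgrounds as deposited these were Oas1a -0.019, Cxcl10 -0.15, Ifi44 -0.017 and Trim30a -0.079. With Agilent's ratio it was Rtp4 0.0083, and with Cy5 alone Gbp3 0.011. With array weights they were Gbp3 0.29, Ifih1 0.00043, Rsad2 0.074, Gbp2 0.11, Irf1 0.17, Rtp4 0.10 and Stat2 0.071. With the replicate block it was Rsad2 0.022, and in the value table Cxcl10 -0.18. Without slide 1 they were Tap1 0.15, Irf7 0.24, Igtp 0.30, Gbp3 0.33, Isg15 0.070, Ifih1 0.17, Psmb8 0.085, Ddx58 0.038, Gbp2 0.14, Irf1 0.23, Ifi35 0.026, Psmb9 0.13, Rtp4 0.20, Oas2 0.061, Oasl2 0.10, Xaf1 0.19, Stat2 0.21 and Irgm1 0.19. With single arrays left out, the ranges were Bst2 -0.097 to 0.33, Cxcl10 -0.089 to 0.25, Ddx58 -0.083 to 0.042, Gbp2 -0.51 to 0.18, Gbp3 -0.33 to 0.28, Ifi44 -0.087 to 0.34, Ifih1 -0.11 to 0.093, Ifit1 -0.35 to 0.044, Irf1 -0.18 to 0.25, Isg15 -0.23 to 0.057, Oas1a -0.080 to 0.35, Oas2 -0.13 to 0.13, Oasl2 -0.25 to 0.21, Psmb9 -0.48 to 0.11, Rsad2 -0.21 to 0.18, Rtp4 -0.22 to 0.29, Stat2 -0.22 to 0.20, Tap1 -0.41 to 0.039, Trim30a -0.093 to 0.21 and Xaf1 -0.37 to 0.035. The causes were not tested. Aquantile leaves log ratios as they are by construction. The number of arrays limits the precision of these values.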
